A study of Mus musculus with 4 samples.

Results

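Annexins are cytosolic proteins that bind membranes rich in acidic phospholipids, such as phosphatidylserine, when calcium rises. Each has a conserved core of annexin repeats, which carries the calcium sites, and an N-terminal tail that differs between members and recruits partners such as the S100 proteins. In phagocytes and dendritic cells the family is known for membrane repair, vesicle fusion, and the handling of inflammation and dying cells.

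The annexin genes Anxa1, Anxa2, Anxa3, Anxa4, Anxa5, Anxa6, Anxa7 and Anxa11 were examined in dendritic cells (DCs) of mouse spleen. Members were the array probe sets whose only gene symbol in the platform annotation was one of these 8 genes. That rule reads symbols and no signal, though the family was picked with earlier results of these data known. The rule gave 17 of 45037 probe sets that are not controls, and they read 7 of the 8 genes, out of 18193 genes with a probe set of their own. No probe set carried the symbol Anxa11 alone, so Anxa11 is not analysed here.

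The groups were CD8α+ DCs and CD8α- DCs from the spleen of C57BL/6 mice, with 2 arrays each, on the Affymetrix Murine Genome 430 2.0 platform. No genetic change or treatment is named for either group. The CD8α+ cells are known as conventional type 1 DCs, which take up dying cells and cross-present their antigens, and the CD8α- cells are mostly conventional type 2 DCs. The labels do not name separate mice or cultures behind the arrays. The p-values thus cover only how these samples varied, which may be technical variation.

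Values are normalised signals, the deposited signals after quantile normalization across the 4 arrays, and differences are log2 signal in CD8α+ DCs minus that in CD8α- DCs, ± the standard error (SE) of the limma fit. The labels were borne out by Cd8a, whose representing probe set had signals of 2014 and 2335 in CD8α+ DCs, against 15.2 and 27.0 in CD8α- DCs. All 5 listed markers shared by DCs exceeded background on all arrays, Cd74 with the highest signal. At an unadjusted limma p under 0.05, 6 of 7 tested type 1 DC markers were higher in CD8α+ DCs (Cadm1 had the highest signal) and 4 of 5 type 2 DC markers were lower (Irf4 had the highest). Of all tested genes 7.13% met that level towards higher and 8.82% towards lower. The type 1 marker that did not, Batf3, read lower, at 114 and 139 in CD8α+ DCs, against 145 and 158 in CD8α- DCs (-0.27 ± 0.32). The CD8α+ arrays resembled each other more (r = 0.955 across tested probe sets) than the CD8α- arrays did (r = 0.835). As a sign of RNA quality, the Gapdh control signal at the 3′ end divided by that at the 5′ end was 1.53 and 1.56 on the CD8α+ arrays, against 2.02 and 10.7 on CD8α- replicates 1 and 2. The same ratio for Actb was 1.69 and 1.62 in CD8α+ DCs, against 1.67 and 0.759 in CD8α- DCs.

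Promoter sequence is shown for 3 members that stand for the patterns below: Anxa2, which read lower in CD8α+ DCs, Anxa5, which read higher, and Anxa1, whose groups overlapped. Each sequence is the 250 bases before the annotated start in RefSeq's GRCm38.p6 table, written 5′ to 3′ on the gene's strand, with motif matches in capitals. The motifs searched on both strands were the TATA box TATAAA, the AP-1 site TGANTCA and the GC box GGGCGG.
Anxa2, chr9:69453433-69453682, plus strand: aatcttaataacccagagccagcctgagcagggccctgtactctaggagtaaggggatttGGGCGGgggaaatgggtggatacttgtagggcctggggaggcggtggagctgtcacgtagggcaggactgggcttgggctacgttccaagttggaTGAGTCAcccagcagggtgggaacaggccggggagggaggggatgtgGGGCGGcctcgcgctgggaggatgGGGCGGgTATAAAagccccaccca
Anxa5, chr3:36475888-36476137, minus strand: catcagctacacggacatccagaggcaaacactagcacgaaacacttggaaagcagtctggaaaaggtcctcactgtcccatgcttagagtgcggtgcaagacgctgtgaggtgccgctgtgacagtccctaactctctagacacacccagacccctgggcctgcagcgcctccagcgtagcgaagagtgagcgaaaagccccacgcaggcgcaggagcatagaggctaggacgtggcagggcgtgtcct
Anxa1, chr19:20390672-20390921, minus strand: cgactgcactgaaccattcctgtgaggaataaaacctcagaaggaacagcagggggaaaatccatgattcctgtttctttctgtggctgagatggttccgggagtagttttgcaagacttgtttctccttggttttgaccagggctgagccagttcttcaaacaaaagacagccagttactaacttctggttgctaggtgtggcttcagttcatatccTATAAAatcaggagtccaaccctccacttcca

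The Anxa2 window held 1 TATA box, 1 AP-1 match and 3 GC boxes, none of which overlapped another. The Anxa2 TATA box starts 17 bases before the gene. The Anxa1 window held 1 TATA box, which starts 32 bases before the gene, and the Anxa5 window held none of these motifs. Among the 32851 promoter windows of the table, 12.4% held the TATA box, 6.75% the AP-1 site and 32.7% the GC box. In base composition, Anxa5 had 13 CG dinucleotides and 58.8% G and C, Anxa2 had 9 and 62.4%, and Anxa1 had 2 and 46%, where the median window had 6 and 52.4%. Of the other members in the table, Anxa11 held 3 GC boxes, Anxa7 held 1 and Anxa4 held none of the motifs. These matches describe the letters of the windows only.

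On the probe set that represents each gene, Anxa3 and Anxa2 read lower in CD8α+ DCs and Anxa5 and Anxa4 read higher. Anxa1, Anxa6 and Anxa7 had overlapping groups there. None of these differences passed the threshold over all probe sets. With limma, 0 of the 15 tested annexin probe sets had an adjusted p under 0.05, as did 0 of all 22519 tested probe sets (0%). At an unadjusted p under 0.05 there were 3 annexin probe sets, 1 higher and 2 lower in CD8α+ DCs. That level was met by 15.5% of all tested probe sets, 7.75% higher and 7.79% lower, so 3 of 15 is a share near the background. The split of the 15 moved with the scaling, to 4 higher and 0 lower on the deposited scale, 6 and 0 with median centring and 3 and 4 with a common trimmed mean. All tested probe sets moved as well. In the same order they split into 2310 higher and 454 lower of 22526, 6018 and 855 of 22519, and 1278 and 3784 of 22519. The groups did not overlap in 9 of the 15, 4 higher and 5 lower, beside 52.3% of all tested probe sets (26.1% higher and 26.2% lower). The median difference of the 15 was -0.14, beside 0.01 over all tested probe sets, and it had no fixed direction, at -0.34 without CD8α- replicate 1 and 0.18 without CD8α- replicate 2.

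**Figure D1:**
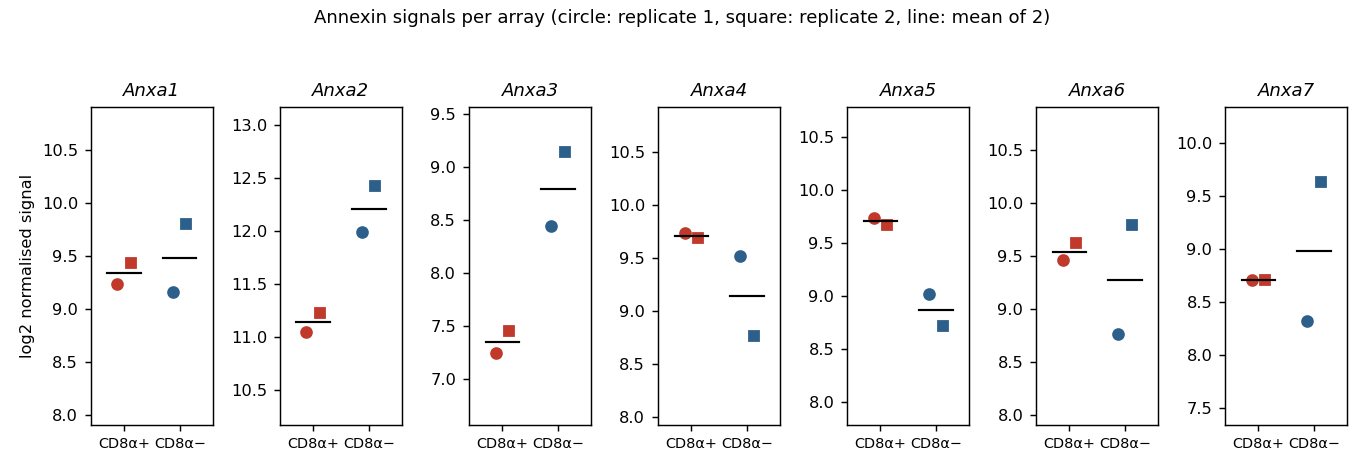
Log2 normalised signal (vertical axes, each spanning the same range) of 7 annexin genes on the 2 CD8α+ arrays (left, red) and the 2 CD8α- arrays (right, blue), with circles for replicate 1, squares for replicate 2 and lines for group means. Both CD8α+ arrays lie below both CD8α- arrays for Anxa2 and Anxa3 and above them for Anxa4 and Anxa5, and the groups overlap for Anxa1, Anxa6 and Anxa7.

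Anxa3, an annexin abundant in neutrophils, had the largest difference among the genes as represented. Its single probe set, 1460330_at, had normalised signals of 152 and 175 in CD8α+ DCs, against 349 and 563 in CD8α- DCs. Both CD8α+ arrays lay below both CD8α- arrays. The difference was -1.44 ± 0.39 (n = 2 arrays each), a 2.72-fold lower signal, with a limma adjusted p of 0.234 and a 95% interval of -2.47 to -0.41. Without CD8α- replicate 1 the difference was -1.80. In that fit 1 CD8α- array stands alone and is assumed to vary like the CD8α+ pair.

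Anxa2 forms a complex with S100a10 at the inner face of the plasma membrane and is known for roles in membrane traffic and plasminogen activation. On the probe set that represents it, 1419091_a_at, its normalised signals were 2124 and 2408 in CD8α+ DCs, against 4071 and 5514 in CD8α- DCs. The groups were separate, and the deposited signals were separate as well, at 2820 and 3192 in CD8α+ DCs, against 4242 and 4065 in CD8α- DCs. The difference was -1.07 ± 0.34 (2.10-fold lower, limma adjusted p = 0.277, 95% interval -1.98 to -0.16). A second probe set, 1437692_x_at, whose name marks possible cross-hybridisation, gave -0.31 ± 0.79, with 75.7 and 46.7 in CD8α+ DCs and 151 and 36.2 in CD8α- DCs. The third, 1437691_at, was too dim for the test and not above background on any array. With its tested probe sets averaged, Anxa2 stood at -0.69.

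Most of the tested neutrophil and macrophage markers also read lower in CD8α+ DCs, and members are named here after their values were seen. In the list of neutrophil markers, 5 of 8 tested genes (S100a8, Mpo, Camp, Ltf and Ngp) were lower in CD8α+ DCs and 0 higher at an unadjusted p under 0.05, a level that 8.82% of all tested genes met towards lower and 7.13% towards higher. Of the other members, Csf3r (0.13 ± 0.97) and Cxcr2 (0.53 ± 0.73) had overlapping groups. The summed signal of the 9 neutrophil markers on the array was 7107 and 7734 in CD8α+ DCs, against 14791 and 11957 in CD8α- DCs. S100a8 and S100a9 made up most of that sum on every array, so it says little of the other members. S100a8 read 2487 and 2852 in CD8α+ DCs, against 5542 and 4465 in CD8α- DCs. Elane was the 1 defining neutrophil marker not above background on any array, while S100a9 had the highest signal of the list, at 3797 and 4025 in CD8α+ DCs and 6984 and 4517 in CD8α- DCs. Of 6 tested macrophage markers, 4 (Adgre1, Cd68, C1qb and Spic) were lower and 1 (Vcam1) higher at that level, and their summed signal over 9 genes ranged from 1607 to 1668 in CD8α+ DCs and from 2625 to 4021 in CD8α- DCs. C1qb averaged 14.1 in CD8α+ DCs, below the 23.0 needed for the test, so it was tested only through its CD8α- signals. Among macrophage markers C1qc was not above background on any array, and Cd68 had the highest signal. The part of these cells in the annexin differences was not tested. In bulk samples, fewer cells of a type and less RNA per cell cannot be told apart.

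The remaining marker lists went different ways, with monocyte and natural killer cell medians below 0. Of 5 tested monocyte markers 0 passed that level, and their median difference was -0.81. At that level 3 of 6 natural killer cell markers (Klra8, Nkg7 and Eomes) were lower and 0 higher, and their median was -1.73. Summed monocyte markers, with Cd14 the highest, read 934 and 1006 in CD8α+ DCs, against 1668 and 1809 in CD8α- DCs. Summed natural killer markers read 353 and 498 in CD8α+ DCs, against 2172 and 1239 in CD8α- DCs. Gzma, the highest of these by mean signal, read 180 and 237 in CD8α+ DCs, against 1555 and 274 in CD8α- DCs. For B cells (Ms4a1 the highest), T cells (Cd3e the highest) and plasmacytoid DCs (Tcf4 the highest) the median differences were 0.21, 0.34 and 0.05. Ms4a1 was higher and Tcf4 lower at that level, the only members of these 3 lists past it. Pax5 of the B cell list and Hba-a1 and Alas2 of the erythroid list were not above background on any array, and Slc4a1 was the highest of the erythroid list.

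Anxa5 binds exposed phosphatidylserine with high affinity, which makes it the standard probe for dying cells. Its single probe set, 1425567_a_at, had normalised signals of 856 and 814 in CD8α+ DCs, against 519 and 422 in CD8α- DCs. Both CD8α+ arrays stood above both CD8α- arrays. The difference was 0.83 ± 0.32, a 1.78-fold higher signal, with a limma adjusted p of 0.327 and a 95% interval of -0.02 to 1.69. As deposited, the same probe set read 1171 and 1166 in CD8α+ DCs, against 550 and 198 in CD8α- DCs.

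Anxa4 is known from epithelia, where it binds membranes of the secretory and apical compartments. Its representing probe set, 1421223_a_at, read 852 and 826 in CD8α+ DCs, against 737 and 437 in CD8α- DCs, a difference of 0.56 ± 0.39 (limma adjusted p = 0.518). The groups were separate, but the gap to CD8α- replicate 1 was small. The other probe sets did not point one way. 1424176_a_at gave 0.28 ± 0.63 with overlapping groups, and 1457658_x_at gave -0.40 ± 0.30 with both CD8α+ arrays below both CD8α- arrays. Without CD8α- replicate 2 the difference on 1421223_a_at was 0.19. With its tested probe sets averaged, Anxa4 stood at 0.15.

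**Figure D2:**
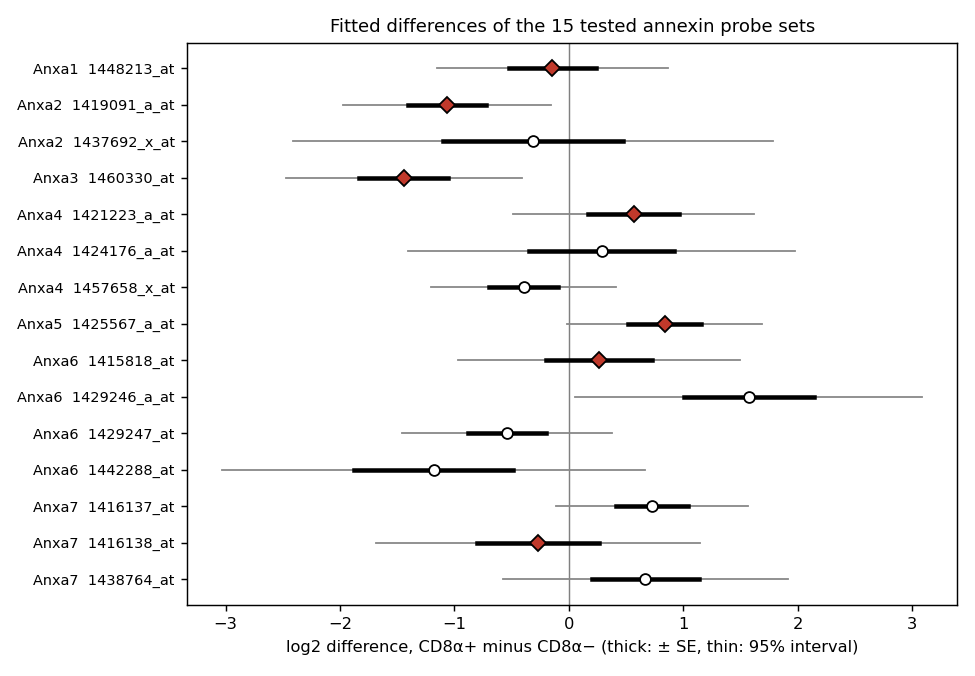
Fitted log2 difference, CD8α+ minus CD8α- DCs (horizontal axis), of the 15 tested annexin probe sets, with thick bars for ± SE and thin bars for the 95% interval. Red diamonds mark the probe set that represents each gene, and white circles the others. The intervals of Anxa3, Anxa2 on 1419091_a_at and Anxa6 on 1429246_a_at exclude 0, and the probe sets of Anxa4, Anxa6 and Anxa7 lie on both sides of it.

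Anxa1 is known as a mediator that limits inflammation through formyl peptide receptors. Its probe set 1448213_at had normalised signals of 605 and 692 in CD8α+ DCs, against 572 and 896 in CD8α- DCs. The CD8α+ arrays lay between the CD8α- arrays. The difference was -0.14 ± 0.38 (limma adjusted p = 0.864), with a 95% interval of -1.15 to 0.86. Its direction turned to 0.18 without CD8α- replicate 2, to 0.037 when arrays were scaled to a common trimmed mean, and to 0.85 on the deposited scale, which is 0.22 relative to the median of all tested probe sets there. The other Anxa1 probe set, 1444016_at, was too dim for the test and not above background on any array.

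Anxa6, which carries a duplicated annexin core and is known for organising cholesterol-rich membranes and endosomes, was read by 4 probe sets that disagreed. The probe set that represents it, 1415818_at, read 704 and 785 in CD8α+ DCs, against 433 and 885 in CD8α- DCs, a difference of 0.26 ± 0.46 (limma adjusted p = 0.795). Probe set 1429246_a_at read 606 and 608 in CD8α+ DCs, against 337 and 124 in CD8α- DCs. There the groups were separate and the difference was 1.57 ± 0.57, a 2.97-fold higher signal with an adjusted p of 0.310. Without CD8α- replicate 1 the difference on 1429246_a_at was 2.31, while that on 1415818_at turned to -0.25. The remaining pair was dim. 1429247_at gave -0.54 ± 0.34 and exceeded background on 1 of the 2 CD8α+ arrays. 1442288_at gave -1.18 ± 0.69 and exceeded background on neither CD8α+ array and on 1 of the 2 CD8α- arrays. The fitted size of 1442288_at is thus not exact. With the 4 probe sets averaged, Anxa6 stood at 0.03.

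Anxa7, also called synexin and known for promoting fusion of secretory vesicles, was read by 3 probe sets. The representing probe set, 1416138_at, read 419 and 417 in CD8α+ DCs, against 320 and 795 in CD8α- DCs, and gave -0.27 ± 0.53 (limma adjusted p = 0.815). Probe set 1416137_at read 448 and 437 in CD8α+ DCs, against 293 and 244 in CD8α- DCs. Its groups were separate, with a difference of 0.73 ± 0.32 and an adjusted p of 0.363. The third, 1438764_at, gave 0.67 ± 0.47 with overlapping groups. With all 3 averaged the gene stood at 0.37, the other direction from its representing probe set.

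For Anxa7, and between the Anxa6 probe sets 1415818_at and 1429246_a_at, the disagreement lay mainly in CD8α- replicate 2. Set against CD8α- replicate 1 alone, the mean of the CD8α+ arrays was higher by 0.78 and 0.85 on the Anxa6 probe sets 1415818_at and 1429246_a_at. Against CD8α- replicate 2 alone the same values were -0.25 and 2.29. The dim Anxa6 probe sets 1429247_at and 1442288_at differed in direction from that pair already against replicate 1, at -0.31 and -1.13. Against replicate 2 they stood at -0.78 and -1.23. For Anxa7 the 3 probe sets gave 0.60 (1416137_at), 0.38 (1416138_at) and 0.17 (1438764_at) against CD8α- replicate 1, and 0.86, -0.93 and 1.17 against CD8α- replicate 2. The 3 Anxa4 probe sets disagreed against either array, at 0.19, 1.11 and -0.38 against replicate 1 and 0.94, -0.54 and -0.41 against replicate 2 (1421223_a_at, 1424176_a_at and 1457658_x_at in turn). Both sets of values use the same CD8α+ arrays and carry no test. Anxa2 on 1419091_a_at and Anxa3 read lower against either array, by -0.85 and -1.10 against replicate 1 and by -1.29 and -1.79 against replicate 2. Anxa5 read higher against either, by 0.69 and 0.98.

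**Figure D3:**
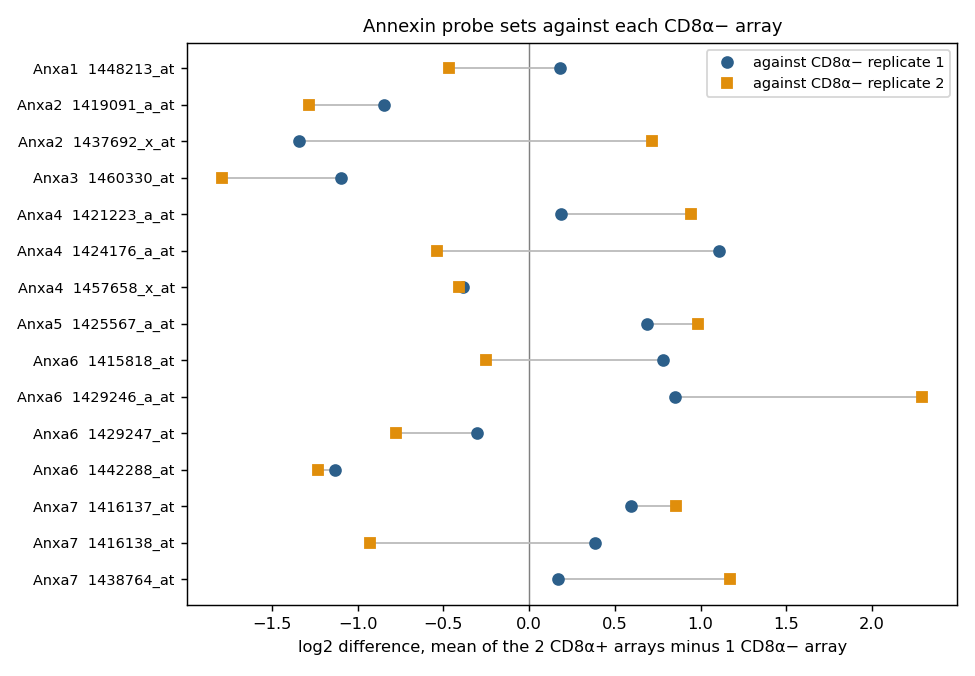
Log2 difference between the mean of the 2 CD8α+ arrays and each CD8α- array alone (horizontal axis; blue circles replicate 1, orange squares replicate 2) for the 15 tested annexin probe sets. The points lie on opposite sides of 0 for Anxa1, 1437692_x_at of Anxa2, 1424176_a_at of Anxa4, 1415818_at of Anxa6 and 1416138_at of Anxa7, and nearly coincide for 1457658_x_at of Anxa4 (-0.38 and -0.41).

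Across the 15 probe sets the median gap between the CD8α+ arrays was 0.16 log2 units and that between the CD8α- arrays 0.69, and the gap was smaller in CD8α+ DCs for 13 of 15. Over all tested probe sets these medians were 0.22 and 0.68. CD8α- replicate 2 is also the array with the Gapdh 3′ to 5′ ratio of 10.7, though its Actb ratio, 0.759, was the lowest of the arrays. The part of RNA quality in the disagreement was not tested.

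Of the known annexin partners and receptors, Fpr2, S100a4 and Pla2g4a read lower in CD8α+ DCs, and none passed over all probe sets. Of 12 listed genes 10 had a probe set of their own and 8 were tested. With limma, 0 of the 8 had an adjusted p under 0.05, and 0 of all 10532 tested genes did (0%). At an unadjusted p under 0.05, 3 were lower and 0 higher, beside 16% of all tested genes (8.82% lower and 7.13% higher). The groups did not overlap for 5 of the 8, beside 53.9% of all tested genes. The list median was -0.87, beside -0.02 over all tested genes.

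Fpr2, a formyl peptide receptor that binds Anxa1, read 108 and 139 in CD8α+ DCs, against 487 and 556 in CD8α- DCs (-2.08 ± 0.33, limma adjusted p = 0.137). S100a4, which binds Anxa2, read 942 and 1008 in CD8α+ DCs, against 5992 and 3651 in CD8α- DCs (-2.26 ± 0.39, adjusted p = 0.142). The cytosolic phospholipase Pla2g4a, which Anxa1 is known to inhibit, read 19.8 and 29.9 in CD8α+ DCs, against 54.9 and 53.7 in CD8α- DCs (-1.16 ± 0.36, adjusted p = 0.271). The groups were separate for each of these genes, and Pla2g4a exceeded background on 1 of the 2 CD8α+ arrays. S100a10, the partner of Anxa2, is named after its values were seen. It read 200 and 168 in CD8α+ DCs, against 687 and 233 in CD8α- DCs, with a difference of -1.12 ± 0.61 (adjusted p = 0.432). Ahnak, a large scaffold protein that binds the complex of Anxa2 and S100a10, is named likewise and read higher, at 4693 and 4641 in CD8α+ DCs, against 4082 and 2906 in CD8α- DCs (0.44 ± 0.34, adjusted p = 0.556). Many myeloid markers also read lower in CD8α+ DCs, with the summed neutrophil signals given above, and their part in the partner values was not tested.

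Genes that move phosphatidylserine across membranes showed no common direction. Of 8 tested flippase and scramblase genes 1 was higher and 1 lower at an unadjusted p under 0.05, beside 7.13% of all tested genes higher and 8.82% lower, with a median of 0.06. The scramblase family member Plscr3 read 59.7 and 64.5 in CD8α+ DCs, against 36.7 and 19.2 in CD8α- DCs (1.23 ± 0.44, limma adjusted p = 0.304). It exceeded background on 1 of the 2 CD8α- arrays, so that size is not exact. Xkr8, a scramblase that caspases activate in dying cells, was not above background in CD8α+ DCs, at 7.42 and 20.3, against 32.4 and 40.3 in CD8α- DCs. With the dim side raised to background, its signal was at least 1.39-fold lower in CD8α+ DCs. The limma adjusted p of its fitted difference, not of that bound, was 0.321. Xkr8 was the 1 lower gene counted above. Its mean in CD8α+ DCs, 13.9, lay below the 23.0 needed for the test. It was thus tested only through its CD8α- signals, and its call adds no support of its own. The calcium-activated scramblase Ano6 had a difference of 1.06 ± 0.46 (adjusted p = 0.362).

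Copines and ferlins bind membranes in response to calcium through domains unrelated to annexin repeats. Of 6 tested members 0 were higher and 1 lower at that level, beside 7.13% of all tested genes higher and 8.82% lower, and the median was 0.28. The copines Cpne3 (1.31 ± 0.51, limma adjusted p = 0.334) and Cpne1 (0.75 ± 0.32, adjusted p = 0.361) had separate groups. The ferlin Otof was not above background in CD8α+ DCs, at 10.3 and 19.4, against 29.1 and 54.1 in CD8α- DCs. That makes it at least 1.53-fold lower in CD8α+ DCs. The fitted difference of Otof, not that bound, had a limma adjusted p of 0.302. Otof was the 1 lower member counted above. Its mean in CD8α+ DCs, 14.8, lay below the 23.0 needed for the test. It was thus tested only through its CD8α- signals, and its call adds no support of its own. The annexins Anxa8, Anxa9, Anxa10 and Anxa13 were too dim for the test, and all but Anxa8 were not above background on any array.

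**Figure D4:**
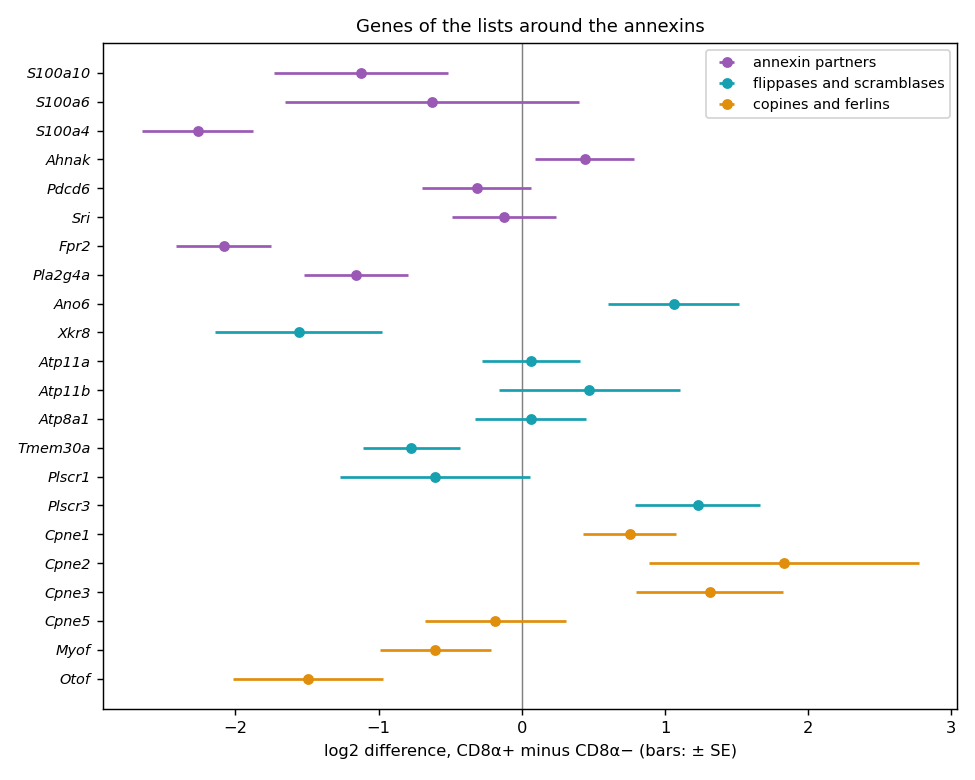
Fitted log2 difference, CD8α+ minus CD8α- DCs (horizontal axis), with bars for ± SE, of the tested annexin partners (purple), phosphatidylserine flippases and scramblases (teal) and copines and ferlins (orange). Fpr2 and S100a4 lie near -2, and Ano6, Cpne2, Cpne3 and Plscr3 lie above 1.

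Genes with the pattern most like Anxa3 and Anxa2 were sought by the root mean square distance of log2 signals, each centred on its mean over the 4 arrays, among 10532 tested genes. For Anxa3 the nearest were Ostf1 (distance 0.02 log2 units, 369 and 421 in CD8α+ DCs, against 839 and 1326 in CD8α- DCs), Fam167a and Heatr5b. For Anxa2 they were Lag3 (distance 0.02, 60.5 and 70.1 in CD8α+ DCs, against 117 and 155 in CD8α- DCs), Ubald1 and Vamp4. Over 4 arrays many genes lie close to any pattern.

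The direction of Anxa2, Anxa3, Anxa4 and Anxa5 was the same under the 3 other scalings. On the deposited scale the median of all tested probe sets moved to 0.63, and there Anxa2 and Anxa3 stood at -0.47 and -0.49, which is -1.10 and -1.12 relative to that shift. Anxa5 stood at 1.82 and Anxa4 at 1.55 on that scale, or 1.19 and 0.92 relative to it. Anxa1 and Anxa7, at -0.16 and -0.29 relative to the median with quantile normalization, stood at 0.22 and 0.08 relative to it on the deposited scale, 0.25 and 0.11 with a common trimmed mean and 0.20 and 0.07 with median centring. Anxa6 was above the median under each of these scalings, at 0.25 with quantile normalization.

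**Figure D5:**
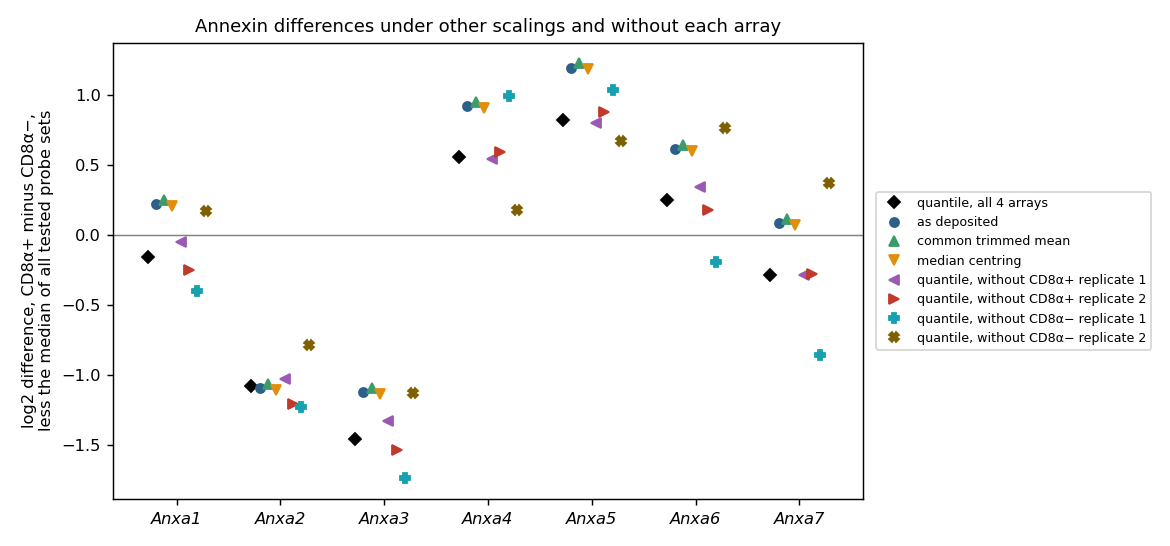
Log2 difference, CD8α+ minus CD8α- DCs, less the median difference of all tested probe sets (vertical axis), for the probe set that represents each annexin gene under 4 scalings and without each array in turn. All points of Anxa2 and Anxa3 lie below 0 and all points of Anxa4 and Anxa5 above it, while those of Anxa1, Anxa6 and Anxa7 lie on both sides.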

How the data were processed

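RNA of 2 CD8α+ and 2 CD8α- DC samples was measured on 1 array each. Each probe set has 1 linear intensity per array, deposited by the authors. Per the submitters' processing notes these are MAS5 signals, and the design text names Microarray Suite 5.0. How cells were sorted and which scaling target was set are not given in the sources used here. That text and the labels' protocols describe RNA extraction and labelling differently. Arrays were not on 1 scale (trimmed means of 125 and 128 in CD8α+, 106 and 49.1 in CD8α-), so log2 signals were quantile normalized, raised to a floor of 6.99 (the 25th percentile) and tested where the mean signal reached the median of 23.0. Controls (64 probe sets) were left out. Of the rest, 34945 had 1 gene symbol, 932 several and 9160 none. All 7 member symbols matched RefSeq. The tested probe set of highest mean signal represented each gene, passing over _x_at ones where another existed. Background was the highest of 27 Bacillus controls per array. "At least" folds are 2 to the power of the brighter group's mean log2 signal minus the dim group's, with each dim array raised to background. The comparison used R 4.3.3 and limma 3.58.1 (lmFit, eBayes, two-sided, Benjamini-Hochberg at 0.05 over 22519 probe sets), with 2 residual and 2.48 prior degrees of freedom. The fit was tested on simulated data. An exact test of 2 against 2 arrays cannot go below 0.333 and was not used. The number of arrays limits the precision.

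Members and lists were chosen with earlier results of these data known. Named are all annexin probe sets; of each gene list, the genes with an unadjusted p under 0.05 and at least the 3 with the smallest p; the 3 genes nearest in pattern to the 2 annexin genes with the largest differences; and, of each marker list for other cell types, the gene with the highest signal and those not above background on any array. Replicate numbers in the titles were not taken to pair the arrays: the deviations of same-numbered arrays correlated at 0.03. Alternatives were 3 other scalings, 2 filters, no floor with log2(signal + 1), an intensity trend, the replicate number as a block, the mean over a gene's probe sets, and each array left out.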

Additional observations from a re-analysis of the deposited data

How the results depend on the processing

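With limma, the count of all tested probe sets under an adjusted p of 0.05 was 0, and it was 406 with median centring, 37 with the stricter filter, 60 with an intensity trend and 14 with the replicate number as a block. With 1 array left out it ranged from 0 to 3543, the highest without CD8α- replicate 1. Annexin probe sets under an adjusted p of 0.05 were 0 of those tested under every alternative with all 4 arrays, the replicate block included. Without CD8α- replicate 1 the difference was -1.80 for Anxa3 and 2.31 on 1429246_a_at of Anxa6. At an unadjusted p under 0.05, the block gave 1 of 15 annexin probe sets higher and 1 lower, against 1 and 2 without it. Over all 22519 tested probe sets the block gave 1953 higher and 1674 lower, against 1746 and 1754 without it. The median of the annexin probe sets, -0.14, lay between -0.34 and 0.18 with 1 array left out, at 0.06 with the stricter filter and at 0.74 both on the deposited scale and with median centring. At an adjusted p under 0.05 the counts of annexin partners, of flippases and scramblases and of copines and ferlins were 0 under every alternative with all 4 arrays. By construction the fit without CD8α- replicate 1 takes its spread from the CD8α+ pair alone, and so does the fit without CD8α- replicate 2. Among single genes the direction turned for Anxa1 on the deposited scale (0.85), with a common trimmed mean (0.037), with median centring (0.85) and without CD8α- replicate 2 (0.18); with 1 array left out it lay between -0.46 and 0.18. It turned for Anxa7 on the deposited scale (0.71), with median centring (0.71), without CD8α- replicate 2 (0.38) and as the mean over its probe sets (0.37), between -0.92 and 0.38 with 1 array left out, and for Anxa6 without CD8α- replicate 1 (-0.25), between -0.25 and 0.77. The scalings move all probe sets, with medians of 0.63 on the deposited scale, -0.21 with a common trimmed mean and 0.65 with median centring, against 0.01. Relative to these Anxa1 was 0.22, 0.25 and 0.20 and Anxa7 0.08, 0.11 and 0.07. The cause of the turns was not tested. Unadjusted calls over all probe sets split into 1746 higher and 1754 lower, against 2310 and 454 on the deposited scale, 1278 and 3784 with a common trimmed mean and 6018 and 855 with median centring. Dim probe sets near background limit what can be said of 1429247_at and 1442288_at of Anxa6.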
